A study of Macaca mulatta with 12 samples.

Results

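Myelin and oligodendrocyte genes were examined on 12 arrays of the dorsal raphe nucleus, the brainstem nucleus that holds many of the serotonin neurons projecting to the forebrain. The genes were chosen by name: MBP, MOBP, MAG, MOG, CNP, MAL, SOX10, UGT8 and OMG, 9 in all, each through every probe set whose only gene symbol was that gene. This gave 13 of the 12558 probe sets that are not array controls, and they represented 8 of the 8226 genes with a probe set of their own. OMG, the oligodendrocyte myelin glycoprotein, had none, because its 1 probe set carried a further symbol, and it is not reported. Of the 13, 11 were among the 7535 probe sets bright enough to be tested, and the other two, both for CNP, were too dim, at 0.969 to 13.2 and 3.42 to 27.3 intensity units.

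The animals were female rhesus macaques with 1 array per monkey and 3 monkeys in each of 4 groups: placebo, estrogen, progesterone, and estrogen plus progesterone. Steroids were given for 1 month from Silastic capsules under the skin. The placebo labels carry the code OVX, for ovariectomized, and the study is of ovariectomized animals throughout, so placebo stands for a state without ovarian steroids. The sources used here do not give steroid doses, ages or any lag between the steroids in the combined group. The titles of the progesterone arrays carry the codes EP1 to EP3, and the group was taken from their source names, P1 to P3.

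Oligodendrocytes wrap axons of the central nervous system in myelin, a stack of lipid-rich membranes that speeds conduction and feeds the axon. MBP and MOBP hold the cytoplasmic faces of the stack together, MAG faces the axon, MOG lies on the outermost layer, CNP keeps cytoplasmic channels open and MAL is a proteolipid of membrane rafts. SOX10 is the transcription factor that the lineage needs to switch on these genes, and UGT8 makes galactocerebroside, the main glycolipid of myelin. The dorsal raphe nucleus is bordered and crossed by myelinated fibre tracts, and progesterone has been studied as a promoter of myelin repair. In a piece of tissue, fewer oligodendrocytes and less RNA per oligodendrocyte cannot be told apart.

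None of the 11 tested probe sets of the 8 genes passed the adjusted threshold of 0.05 in any comparison of the 4 groups (limma, adjusted over all 7535 probe sets), and none did so under any alternative processing. UGT8 was the gene with the smallest p in the F test over the 4 groups (unadjusted 0.0951, adjusted 0.875, limma): its mean intensity was 363 ± 81 in the placebo group, 383 ± 93.7 under estrogen, 262 ± 94.1 under progesterone and 249 ± 38.2 under both steroids (SD, n = 3 each). The share of variance lying between the groups had a median of 23.1% over the 11 probe sets, beside 24.9% for all tested probe sets. MOBP, MAG, MOG and MAL tended to be high or low on the same arrays. CNP and SOX10 did so less, with r = -0.04 between them over 12 arrays. UGT8 did not, and the place of MBP depended on the normalization. The array's probes are human and the RNA was macaque, so how well a probe matches also sets its intensity, and no level was compared between probe sets.

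MBP, the basic protein of compact myelin, read 7824, 7254 and 7302 on placebo arrays 1 to 3, 7393, 6326 and 6783 with estrogen, 7427, 11197 and 9191 with progesterone, and 7712, 7598 and 7100 with both steroids. Progesterone arrays 2 and 3 stood above all others, while progesterone array 1 lay inside the placebo range, so the groups overlapped. Group means were 7460 ± 316, 6834 ± 535, 9272 ± 1886 and 7470 ± 326 in the same order. The log2 change against placebo, on the quantile normalized scale, was -0.17 ± 0.15 with estrogen, 0.062 ± 0.15 with progesterone and -0.057 ± 0.15 with both (± standard error, adjusted p = 1, 0.957 and 0.999).

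The MBP difference with progesterone was smaller after quantile normalization, which gives every array the same distribution. On the values as deposited, the log2 change was 0.29, with an adjusted p of 0.701 (limma), and after quantile normalization it was 0.062. Over all alternatives it ran from -0.03 to 0.30. MBP was among the brightest probe sets, at a median percentile of 99.8, and so took values of the top ranks. Deposited readings of 7254 on placebo 2, 7302 on placebo 3 and 9191 on progesterone 3 all became 13.016. The part of these shared ranks was not tested. The 95% interval of the normalized change ran from -0.28 to 0.40. With estrogen, all 3 normalized values lay below the 3 placebo values by a gap of 0.044 log2 units, whereas the deposited values overlapped.

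MOBP, a smaller protein of compact myelin, varied most between monkeys among the 8 leading probe sets (the brightest of each gene). Its intensity was 1168, 529 and 527 with placebo, 1007, 296 and 527 with estrogen, 478, 703 and 732 with progesterone, and 772, 456 and 466 with both. Placebo 1 and estrogen 1 were the highest and estrogen 2 the lowest, a 3.95-fold span, and every group overlapped every other. The log2 changes against placebo were -0.31, -0.11 and -0.30, each ± 0.44, and the adjusted p was 1, 0.978 and 0.999.

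**Figure D1:**
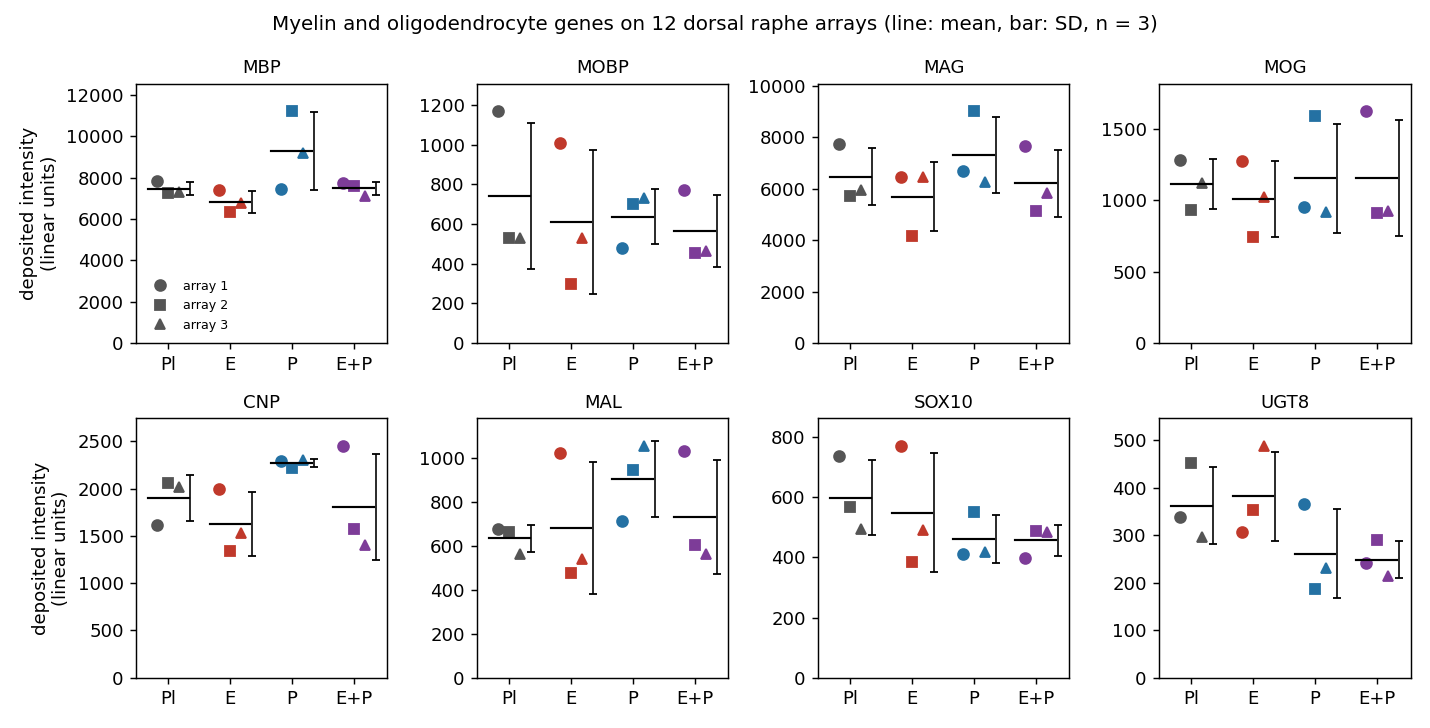
Deposited intensity (linear units, axes from 0) of the leading probe set of each of the 8 genes on every array, for placebo (Pl), estrogen (E), progesterone (P) and both steroids (E+P); points are monkeys, the line is the mean and the bar the SD over 3. The MBP points of progesterone arrays 2 and 3 stand above the rest, and the MOBP points spread from 296 to 1168. The UGT8 points of 5 progesterone-treated monkeys lie below every monkey without progesterone, a split whose share over all probe sets is not given here.

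MAG, the adhesion protein of the inner sheath that contacts the axon, read 7740, 5733 and 5937 with placebo, 6446, 4145 and 6468 with estrogen, 6703, 9008 and 6260 with progesterone, and 7673, 5141 and 5815 with both. Progesterone 2 was the highest array and estrogen 2 the lowest, and the groups overlapped throughout. Means were 6470 ± 1105, 5686 ± 1335, 7323 ± 1475 and 6210 ± 1311 (SD, n = 3). The log2 change with progesterone was 0.019 ± 0.21 after normalization and 0.17 as deposited, with adjusted p = 0.997 and 0.911. With estrogen and with both steroids it was -0.20 and -0.10, with the same standard error.

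MOG, the surface glycoprotein of the outermost layer, had a pair of tested probe sets. The brighter gave 1284, 935 and 1118 with placebo, 1274, 740 and 1020 with estrogen, 952, 1592 and 917 with progesterone, and 1623, 913 and 927 with both. The other gave 737, 350 and 583, then 484, 316 and 390, then 425, 603 and 416, and last 509, 418 and 458. Estrogen 2 was the lowest array on each, the groups overlapped on each, and the pair had r = 0.75 over the arrays (Pearson, 12 arrays, a description over 1 set of libraries).

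The fitted changes of MOG differed between its probe sets. On the brighter one, the log2 changes with estrogen, progesterone and both were -0.15, 0.012 and 0.035, each ± 0.31. The dimmer one gave -0.42, -0.15 and -0.19, each ± 0.27, with adjusted p = 1, 0.941 and 0.999. The signs differed for progesterone and for both steroids, with all 4 of these values smaller than their standard errors.

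CNP, the phosphodiesterase of non-compact myelin, had 3 tested probe sets. The brightest read 1619, 2057 and 2021 with placebo, 2001, 1339 and 1536 with estrogen, 2288, 2219 and 2306 with progesterone, and 2450, 1572 and 1406 with both. As deposited, the 3 progesterone values lay above the 3 placebo values and close together, at 2271 ± 45.9 against 1899 ± 243, but after normalization the groups overlapped and the log2 change was 0.22 ± 0.25 (adjusted p = 0.881). With estrogen it was -0.22 and with both steroids -0.085.

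The other CNP probe sets showed no such pattern. The second read 290, 898 and 260 with placebo, 357, 494 and 330 with estrogen, 433, 478 and 198 with progesterone, and 464, 478 and 152 with both; placebo 2 stood far above the other arrays and estrogen plus progesterone 3 lowest. The third ranged only from 309 to 490 over all 12 arrays, with group means of 427 ± 55.2, 414 ± 83.7, 410 ± 8.95 and 359 ± 42.9. Between the 3 probe sets r over 12 arrays was 0.26, 0.48 and 0.39, so they did not give a single CNP profile. Their log2 changes with progesterone were 0.22 ± 0.25, -0.23 ± 0.53 and -0.033 ± 0.19.

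MAL, the raft proteolipid, gave 676, 660 and 564 with placebo, 1023, 476 and 539 with estrogen, 713, 945 and 1052 with progesterone, and 1029, 602 and 562 with both. All 3 progesterone values were above all 3 placebo values, on the deposited and on the normalized scale, while estrogen and the combined group each held 1 high and 2 low arrays. The log2 change with progesterone was 0.50 ± 0.32, the highest of the 11, with a 95% interval from -0.20 to 1.19 and an adjusted p of 0.735. With estrogen it was 0.047 and with both 0.17.

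SOX10 read 736, 566 and 495 with placebo, 770, 385 and 491 with estrogen, 412, 552 and 419 with progesterone, and 398, 489 and 485 with both. Placebo 1 and estrogen 1 were the highest. The 3 arrays with both steroids lay below the lowest placebo array, the highest of the 3 by 0.007 log2 units after normalization. Means were 599 ± 124, 548 ± 199, 461 ± 79.3 and 457 ± 51.2. The log2 changes were -0.13, -0.35 and -0.36, each ± 0.26, and the adjusted p was 1, 0.794 and 0.999.

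UGT8, the galactocerebroside synthase, read 338, 453 and 297 with placebo, 307, 353 and 488 with estrogen, 367, 186 and 232 with progesterone, and 242, 290 and 214 with both. Of the 6 monkeys given progesterone, alone or with estrogen, 5 lay below every monkey not given it, and progesterone 1 was the exception. How many of all tested probe sets split in this way is not given here, so the split cannot be read as unusual. The mean was 255 ± 64.6 with progesterone and 373 ± 79.1 without (SD, n = 6 each). The log2 difference between monkeys with and without progesterone was -0.53 ± 0.19, with a 95% interval from -0.94 to -0.12. Its unadjusted p was 0.0159 and its adjusted p 0.826 (limma). Of all tested probe sets, 5.84% had an unadjusted p under 0.05 in this comparison (limma).

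Against placebo, the log2 change of UGT8 was 0.069 ± 0.27 with estrogen, -0.47 with progesterone and -0.52 with both (adjusted p = 1, 0.699 and 0.999). Both steroids against estrogen alone gave -0.59 ± 0.27, interval -1.17 to -0.011, unadjusted p = 0.0464 and adjusted p = 1. With any 1 array left out, the difference between monkeys with and without progesterone stayed between -0.66 and -0.43, and it did not pass the adjusted threshold in any of its 22 alternatives, where the smallest adjusted p was 0.261.

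**Figure D2:**
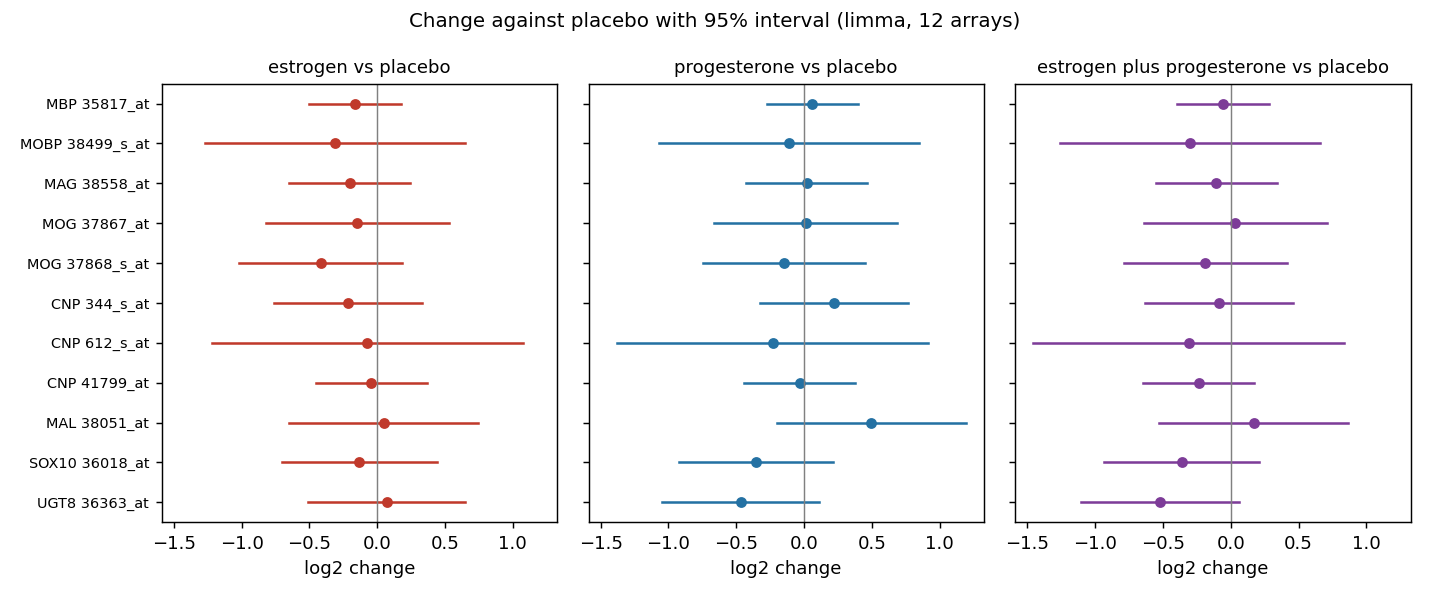
Log2 change against placebo of the 11 tested probe sets with estrogen, progesterone and both steroids; points are limma estimates on quantile normalized values and bars are 95% intervals. Every interval crosses 0, the widest belong to MOBP and the second CNP probe set, and the narrowest to MBP.

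Counted over the 11 probe sets, 2 were higher and 9 lower with estrogen than with placebo, with a median log2 change of -0.15, where the median of all tested probe sets was -0.005. With progesterone 5 were higher and 6 lower, with a median of -0.033. With both steroids 2 were higher and 9 lower, with a median of -0.19. The 11 hold 3 probe sets of CNP and 2 of MOG. On the leading probe set of each of the 8 genes, 2 were higher and 6 lower with estrogen (median -0.16). With progesterone they were 5 and 3 (median 0.015, of the other sign), and with both steroids 2 and 6 (median -0.095). These comparisons share the placebo arrays, so they are not independent of each other. Both steroids against estrogen gave 7 higher and 4 lower (median 0.099), and both against progesterone 1 higher and 10 lower (-0.12). For the effect of progesterone over both estrogen states the count was 6 higher and 5 lower, and for that of estrogen 1 higher and 10 lower. For the interaction it was 6 higher and 5 lower, and the medians were 0.042, -0.14 and 0.046 in this order. Of all tested probe sets, 49.2% to 50.5% were higher across the comparisons given here. Several of the 11 share a gene or vary together, so they are not 11 independent counts. With 1 array left out at a time, the median of the progesterone effect ran from -0.047 to 0.097 and that of the interaction from -0.12 to 0.17, so each could turn sign, while the estrogen effect ran from -0.21 to -0.030 and both against progesterone from -0.26 to -0.027.

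Calls among the 11 are read against the share of all tested probe sets called. Past the adjusted threshold were 0.00% of probe sets for estrogen against placebo, 0.0398% for progesterone, 0.0133% for both steroids, 0.00% for both against estrogen, 0.0133% for both against progesterone, 0.00% and 0.0133% for the effects of progesterone and of estrogen over the other steroid, 0.00% for the interaction and 0.0531% for the F test. None of the 11 was among them (limma). At an unadjusted p under 0.05 the background was 3.16%, 8.24%, 3.38%, 2.87%, 7.71%, 5.84%, 5.83%, 4.99% and 5.79% in the same order. The only member at that level was UGT8, 1 of 11 in the comparison of both steroids with estrogen and 1 of 11 in the progesterone effect, and none of 11 in each of the other seven.

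Values that did not overlap between groups were also few. After normalization, MBP was the 1 probe set of 11 lying wholly below placebo with estrogen, against a background of 3.29%, and MAL the 1 lying wholly above with progesterone, against 8.56%. SOX10 and UGT8 lay wholly below placebo with both steroids, 2 of 11 or 18.2%, against 4.62%. UGT8 alone lay below in both steroids against estrogen, against 3.12%, and the third CNP probe set alone in both against progesterone, against 8.21%. A single probe set of 11 is 9.09%, so these shares move in large steps.

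The share of variance lying between the groups gave the same picture of mostly within-group spread. Over the 11 probe sets its median was 23.1%, beside 24.9% for all tested probe sets and 24.4% for those at least as bright. It was highest for UGT8 at 47.3% and MBP at 41.2%, and lowest for the second CNP probe set at 3.82%, the brighter MOG probe set at 4.26% and MOBP at 6.16%. Within groups, the SD on the log2 scale had a median of 0.34 over the 11, 0.30 over all tested and 0.24 over those as bright. MBP was the steadiest with 0.12, and the widest were the second CNP probe set with 0.76 and MOBP with 0.62.

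Part of this spread was shared between genes, with a median r of 0.30 over the 28 pairs of leading probe sets. For each array, the deviation of each gene's leading probe set from its own mean over 12 arrays was averaged over the 8 genes. This level was 0.20, 0.05 and -0.03 on the placebo arrays, 0.31, -0.43 and -0.05 with estrogen, -0.03, 0.18 and 0.03 with progesterone, and 0.19, -0.15 and -0.27 with both, in log2 units. Estrogen held both the highest and the lowest array. Group means were 0.08 ± 0.12, -0.06 ± 0.37, 0.06 ± 0.11 and -0.08 ± 0.24 (SD, n = 3), and 11.3% of the variance of the level lay between groups.

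Estrogen array 2 was the lowest of the 12 for 7 of the 11 probe sets, and 7 of the 8 genes lay below their own mean on it, MOBP by -1.01 log2 units; UGT8, at 0.21, was the exception. On estrogen 1 and progesterone 2, 7 of 8 genes lay above their mean, and on estrogen plus progesterone 3 none did. Markers of cerebellum, a neighbouring structure, were highest on estrogen 2: the 8 tested of 14 listed averaged 0.65 above their own means there, all 8 were above, and on estrogen plus progesterone 2 they averaged 0.32, with the other 10 arrays between -0.16 and 0.04. Their summed intensity was 3943 to 5185 with placebo, 4532 to 5887 with estrogen, 4507 to 5325 with progesterone and 3981 to 5187 with both, and none was at 0. Their part in the low myelin values of estrogen 2 was not tested.

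**Figure D3:**
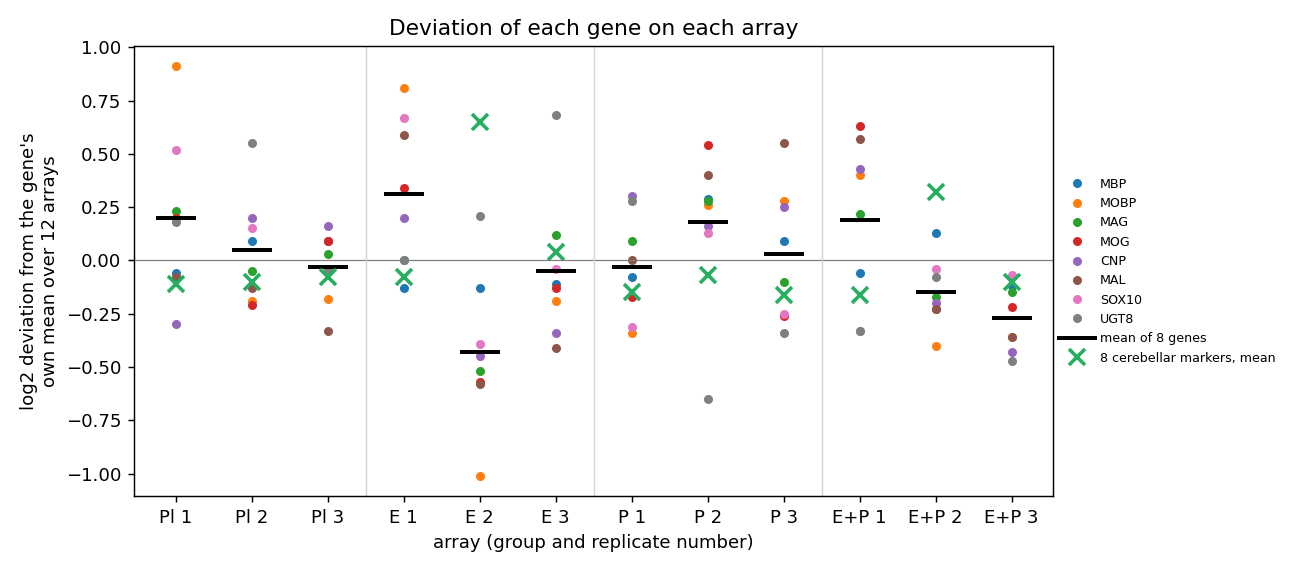
Log2 deviation of each gene from its own mean over 12 arrays, per array; dots are the 8 genes, black bars their mean and green crosses the mean of 8 cerebellar markers. On estrogen 2 the mean of the genes is -0.43 and that of the cerebellar markers 0.65, and UGT8 (grey) often lies on the other side of 0 from most genes.

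The estrogen difference turned on this array. Without estrogen 2, 6 of the 11 probe sets were higher and 5 lower with estrogen than with placebo, and the median was 0.077 in place of -0.15. Without estrogen 1 the median was -0.32. The cerebellar markers themselves were higher in 7 of 8 with estrogen (median 0.25), and in 4 of 8 without estrogen 2 (median 0.055).

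Estrogen 1 and estrogen plus progesterone 1 also stood apart, with a 28S ribosomal control of 841 and 1354 against 64.2 to 179 on the others, and a GAPDH ratio of 3' to 5' signal of 2.45 and 2.05 against 0.892 to 1.46. The level of the 8 genes was 0.31 and 0.19 on these arrays, and 0.20 and 0.18 on placebo 1 and progesterone 2. Without these 2 arrays, 10 of 11 probe sets were lower with estrogen than with placebo (median -0.32), and 11 of 11 lower with both steroids (median -0.27), still with none past the threshold. The part of ribosomal RNA in these values was not tested.

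Placebo 1, high in MOBP, MAG, SOX10 and the dimmer MOG probe set, also weighed on the comparisons. Without it, 7 of 11 were lower with estrogen (median -0.068), 7 of 11 lower with both steroids (median -0.11), and 7 of 11 higher with progesterone (median 0.061). Leaving out each array in turn moved the median with progesterone between -0.21 and 0.065, and with both steroids between -0.27 and -0.048. Only the last of the 3 comparisons with placebo kept the sign of its median over all 12 such fits.

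**Figure D4:**
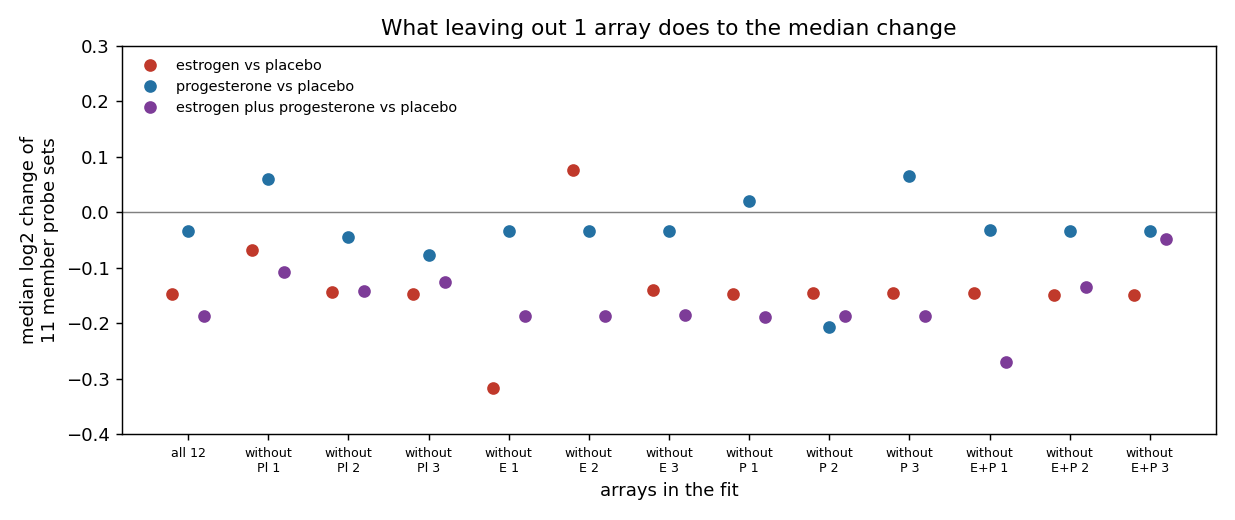
Median log2 change of the 11 probe sets against placebo with all 12 arrays and with each array left out in turn; colours are the 3 steroid groups. Without estrogen 2 the estrogen median is 0.077 in place of -0.15, and the median with both steroids stays below 0.

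Gene by gene, the arrays were ordered alike for most of the sheath genes. Over 12 arrays, which the pairs of genes share, MOG and MAG had r = 0.81, CNP and MAL 0.76, MOG and MOBP 0.75, MOBP and MAL 0.73, and MOBP and SOX10 0.69. With the group means removed these were 0.84, 0.75, 0.76, 0.85 and 0.75, so the pattern lay within groups. Of the 21 pairs without UGT8, 20 had r above 0, with a median of 0.40; without estrogen 2 the median was 0.25, and without estrogen 1 and estrogen plus progesterone 1 it was 0.60.

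UGT8, and after normalization MBP, departed from this pattern. UGT8 had r above 0 with only 1 of the 7 other genes, with a median of -0.23, and r = -0.34 with the mean of the others. MBP had r = 0.14 with the mean of the others after normalization. On deposited values it had 0.51, where SOX10 had 0.45, so its place depended on the scale. For the rest r with the mean of the others was 0.82 for MOBP, 0.75 for MAG, 0.73 for MOG, 0.65 for MAL, 0.52 for CNP and 0.48 for SOX10. Leaving out the 2 arrays farthest from the median, these became 0.74, 0.75, 0.60, 0.44, 0.29 and 0.35, and UGT8 -0.37.

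**Figure D5:**
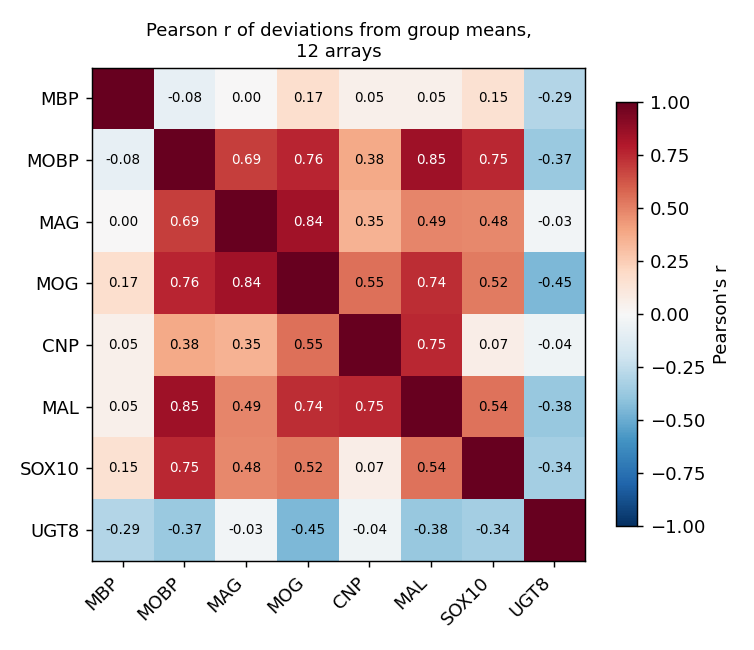
Pearson correlation between the leading probe sets of the 8 genes over 12 arrays, after the mean of each group was taken away; red is above 0 and blue below. MOBP, MAG, MOG and MAL form the red block, with MOBP and MAL at 0.85, while every value of UGT8 is below 0 and those of MBP with the other sheath genes are near 0.

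Further lists of the lineage were set against the level of the 8 genes over the 12 arrays, as a description. Genes of mature oligodendrocytes had the highest r, 0.71, while other structural genes of myelin had 0.21, lipid enzymes 0.26, transcription factors 0.07, precursor genes -0.39 and the inhibitor pathway 0.31. Without the 2 arrays farthest from the median, these other lists gave 0.21, -0.09, 0.15, 0.10 and 0.39. Of the 24 listed genes of mature oligodendrocytes, 15 were tested. All 15 had r above 0 with the level of the 8 genes, against 48.8% of all tested probe sets outside those genes. For the 15, r ran from 0.02 for PLEKHB1 and 0.03 for ERBB3 to 0.65 for KLK6. The mean of the 15 had r = 0.71 with the level (Spearman's coefficient 0.69, and r = 0.79 without the 2 arrays farthest from the median). It was low on estrogen 2, at -0.37, and high on progesterone 2 and placebo 1, at 0.45 and 0.38. With estrogen 3 of 15 were higher and 12 lower than with placebo (median -0.17), with progesterone 10 and 5 (median 0.024), and with both 5 and 10 (median -0.059), none past the threshold. Without placebo 1 the last count became 10 higher and 4 lower of the 14 then tested (median 0.15), and without progesterone 2 the progesterone count became 2 higher and 12 lower of 14 (median -0.12), so each turned with 1 array.

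By the smallest p in the F test, the genes of that list to be named are MYO1D, a motor protein, with log2 changes of 0.17, 0.47 and -0.24, PLEKHB1 with -0.04, 0.18 and 0.22, and ERBB3, the neuregulin receptor, with -0.55, 0.10 and -0.16, for estrogen, progesterone and both against placebo. Their unadjusted p in the F test was 0.182, 0.247 and 0.266.

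Among other structural genes of myelin, 10 of 19 were tested, and CLDN11 had no probe set of its own in the table used here. With estrogen 4 were higher and 6 lower, with progesterone 6 and 4, with both 5 and 5, with medians of -0.053, 0.059 and 0.018 and none past the threshold. Leaving out 1 array at a time turned the sign of each median, with ranges of -0.23 to 0.010, -0.025 to 0.18 and -0.079 to 0.12. JAM3, an adhesion protein, had means of 264 ± 69.9, 253 ± 53, 300 ± 55.2 and 372 ± 43.7 for placebo, estrogen, progesterone and both. CD9, a tetraspanin of the sheath, read 348 ± 208, 176 ± 66.8, 192 ± 59.3 and 189 ± 17.9, with log2 changes of -0.90, -0.69 and -0.71 that rest on a placebo group with a wide spread. GJB1, the connexin that couples layers of the sheath, read 766 ± 8.9, 631 ± 50.3, 924 ± 373 and 630 ± 110.

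Enzymes of myelin lipids stood beside UGT8 on the list, 5 of 11 being tested. They were 3 higher and 2 lower with estrogen, 2 and 3 with progesterone, and 3 and 2 with both (medians 0.062, -0.084 and 0.10). GAL3ST1, which adds sulphate to the product of UGT8 to make sulphatide, read 93.4 ± 10.4, 94.2 ± 17.7, 124 ± 12.6 and 119 ± 41, with log2 changes of -0.01, 0.39 and 0.26, where UGT8 had 0.069, -0.47 and -0.52. SCD, a fatty acid desaturase, had -0.12, -0.36 and 0.10, and PSAP, the precursor of the saposins that help break down glycolipids, 0.30, 0.08 and 0.26. None passed the threshold.

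Transcription factors of the lineage, 9 of 15 tested, were 3 higher and 6 lower with estrogen, 2 and 7 with progesterone, and 2 and 7 with both. The medians were -0.13, -0.37 and -0.065, with none past the threshold. With 1 array left out, the progesterone median ran from -0.53 to -0.17, the latter without progesterone 3 (3 higher and 6 lower). The mean of the list was -0.35 on that array, and -0.04 and 0.01 on progesterone 1 and 2. NKX2-2, a homeodomain factor of oligodendrocyte differentiation, read 532 ± 73.7, 454 ± 118, 697 ± 78 and 450 ± 36.4, with log2 changes of -0.24, 0.41 and -0.21 (limma F test, unadjusted p 0.0255 and adjusted p 0.799). SOX9, which acts before SOX10 in glial fate and is also an astrocyte gene, had log2 changes of 0.10, -0.80 and -0.06 (F test adjusted p = 0.264). OLIG2, which specifies the lineage, had -0.16, -0.39 and -0.02, ZEB2 -0.61, -0.62 and -0.50, and MYRF, the factor of myelin gene activation, -0.32, -0.10 and -0.24.

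Precursor genes, 6 of 9 tested, were 4 higher and 2 lower with estrogen, and 3 and 3 with progesterone and with both (medians 0.088, -0.13 and 0.042). PDGFRA, the growth factor receptor of precursors, had log2 changes of 0.35, 0.49 and 0.10 on its brightest probe set, CSPG4, the NG2 proteoglycan, 0.25, -0.38 and 0.26, and VCAN, the proteoglycan versican, -0.10, -0.45 and -0.16. In the pathway through which myelin proteins inhibit axon growth, where MAG and OMG are ligands, 6 of 14 genes were tested, with 2 higher and 4 lower in each comparison (medians -0.076, -0.096 and -0.086). RTN4, the Nogo protein, read 4399 ± 1106, 3655 ± 681, 3626 ± 552 and 3699 ± 151, ARHGDIA had log2 changes of 0.07, -0.32 and 0.23, RHOA read 2860, 2754, 2622 and 2826, and RTN4R had no probe set of its own in the table used here.

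Markers of other cells were set against the level of the 8 genes over the 12 arrays, as a description. Neuron markers, 14 of 15 tested, had r = -0.49 for their mean (Spearman -0.69), and the markers were split, 7 with r above 0 and 7 below: SNAP25 was at -0.69 and NEFL at 0.04. Microglia gave 0.48 (7 of 12 tested), astrocytes -0.25 (12 of 12), endothelium -0.21 (7 of 10), Schwann cell genes -0.32 (4 of 8), blood 0.63 (2 of 6) and serotonin neurons -0.18 (9 of 12). Without the 2 arrays farthest from the median these values were -0.49 for neurons, 0.74 for microglia, -0.57 for astrocytes, -0.48 for endothelium, -0.36 for Schwann cell genes, 0.33 for blood and 0.07 for serotonin neurons, so the last turned sign. Against placebo, neuron markers were 11 higher and 3 lower with estrogen (8 and 6 without estrogen 3). With progesterone they were 8 and 6 (5 and 9 without progesterone 1), and with both 10 and 4 (7 and 7 without placebo 2). Astrocyte markers were 7 and 5, 7 and 5, and 4 and 8 in the same order. None of either list passed the threshold. In the order placebo, estrogen, progesterone and both, GFAP of astrocytes read 1358, 1136, 1022 and 1135, AQP4 180, 197, 206 and 207, AIF1 of microglia 163, 152, 196 and 164, and PECAM1 of endothelium 122, 140, 120 and 146. For the labelled tissue, the serotonin neuron markers SLC6A4 and FEV were bright enough to be tested, at 435, 376, 282 and 390 and at 151, 204, 167 and 158. Of the 9 tested markers of serotonin neurons, 4 were higher and 5 lower with estrogen, 1 and 8 with progesterone (median -0.45), and 2 and 7 with both. In the progesterone effect over both estrogen states all 9 were lower (median -0.24), none past the threshold, the comparison in which UGT8 had -0.53, and their part in the UGT8 value was not tested. The cerebellar markers had r = -0.70, which was -0.42 without estrogen 1 and 2.

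By likeness to the level of the 8 genes over 12 arrays, among 6669 single-symbol probe sets outside them, the highest were PRKACG (r = 0.93), CCR7 (0.90), FETUB and UTF1 (0.87 each), a PDGFRA probe set (0.86), and PAIP2B, WNT7A and HLA-DMA (0.85 each). Likeness was a property of the probe set: the brightest PDGFRA probe set had r = -0.10 and a further WNT7A probe set 0.38. At the other end were PHF2 (-0.93), MAP3K4 and ZHX3 (-0.91 each), PURA (-0.89) and AURKA (-0.87), with other PURA probe sets at -0.74 and 0.63. The median r over all tested probe sets was -0.02, and these extremes are the ends of a long ranking over the same 12 arrays.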

How the data were processed

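The deposited values are 1 intensity per probe set and array on a linear scale, from the authors' series table, for 12 arrays with 3 monkeys in each of 4 groups. How probes were summarised is not given in the sources used here. Gene symbols came from the table of the array platform. Intensities were converted to log2(intensity + 8.26), the offset being the pooled 10th percentile. Array medians spanned 0.205 log2 units, above a limit of 0.15, so quantile normalization was applied. A filter on the mean over all arrays dropped the dimmest 40%, 5023 probe sets, and 7535 were tested with limma 3.58.1 in R 4.3.3 (lmFit and eBayes, 4 group means, 2-sided, Benjamini-Hochberg over all tested). The fit was tested on simulated data with noise drawn independently for each probe set and array. That test does not bear on arrays that stand apart or on genes that vary together. Deposited intensities are printed with the SD over 3 arrays, and log2 changes with their standard error. A fold on this scale understates the change of dim probe sets, and 3 arrays a group limit the precision.

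The genes and lists were chosen with earlier results of these data known. Named were all probe sets of the genes, fixed defining genes, up to 3 genes per oligodendrocyte list with the smallest F test p, and the 8 highest and 5 lowest by likeness. Replicate numbers are not said to be shared between groups: of 18 same-numbered pairs of arrays 5 had correlated deviations above 0.1 (range -0.22 to 0.41), so they were not treated as pairs.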

Additional observations from a re-analysis of the deposited data

How the results depend on the processing

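No probe set of the 8 genes was called in any of 9 comparisons under any alternative: other offsets, normalizations, filters, variance models, array weights, a fit with the groups compared alone, a replicate block, both arrays of high ribosomal signal left out, or each array left out. Each group holds each replicate number once, so the replicate block cannot move the medians against placebo (-0.15, -0.033 and -0.19), and it bears only on the calls. Of 35 single log2 changes, 14 kept their sign in all alternatives and 21 did not; 34 of the 43 sign changes came with 1 array left out. The rest were MAL with estrogen (-0.20 with array weights, -0.32 without both ribosomal arrays) and with both steroids (-0.12 without those arrays), the second CNP probe set with estrogen (0.033) and MOBP with progesterone (0.16) under array weights, MBP with both steroids (0.002 as deposited) and the brighter MOG probe set with both steroids (-0.032 with a common median, -0.12 with array weights, -0.25 without both arrays). Leaving out 1 array gave, with estrogen, -0.32 to 0.077 for the median, -0.43 to 0.11 for SOX10, -0.12 to 0.23 for UGT8, -0.38 to 0.077 for the brighter MOG, -0.32 to 0.27 for MAL, -0.78 to 0.13 for MOBP, and -0.41 to 0.48 and -0.14 to 0.14 for the second and the third CNP probe sets. With progesterone it gave -0.030 to 0.15 for MBP, -0.24 to 0.16 and -0.45 to 0.082 for MOG, -0.30 to 0.25 for MOBP, -0.075 to 0.12 for MAG, and -0.56 to 0.32 and -0.10 to 0.062 for those CNP probe sets. With both steroids it gave -0.34 to 0.10 and -0.64 to 0.25 for the first and second CNP probe sets, -0.25 to 0.18 and -0.49 to 0.043 for MOG, -0.12 to 0.35 for MAL and -0.56 to 0.066 for MOBP. The median of both steroids against estrogen ran from -0.14 to 0.16. The cause was not tested.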
